A study of Mus musculus with 75 samples.

Results

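Lung mRNA of 10 antioxidant genes was followed through the course of bleomycin injury in mice. The genes are Slc7a11, Gclc and Gclm of glutathione supply, Txnrd1, Srxn1 and Nqo1 of thiol and quinone reduction, the superoxide dismutases Sod2 and Sod3, and the glutathione peroxidases Gpx2 and Gpx3. They were set by name as genes of 1 function, with earlier results of these data known. All 10 were found among the 55536 genes of the count table, and all 10 were abundant enough to be tested, together with 16221 genes in all. The lungs came from 75 male C57BL/6JRj mice, aged 12 to 14 weeks at the start, in a model of idiopathic pulmonary fibrosis (IPF) made with bleomycin (BLEO), a DNA-damaging drug that injures the alveolar epithelium. BLEO-IPF mice had 1 intratracheal instillation of BLEO sulphate and were killed on day 7 (n = 10), day 14 (n = 12), day 21 (n = 12), day 28 (n = 12), day 35 (n = 12) or day 42 (n = 7), and 10 mice of the same strain served as controls (CTRL). The sample labels call the CTRL mice saline treated, whereas the treatment protocol calls them untreated. BLEO-IPF mice entered a study group only if they had lost a mild to moderate amount of body weight by day 6, so mice with little or severe early weight loss are not represented. The airways were rinsed with saline before the lung was taken out, and poly A RNA of the right inferior lobe was sequenced, so each value is an average over all cells of that lobe.

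Glutathione and thioredoxin are the main thiol systems by which cells remove peroxides. NRF2, encoded by Nfe2l2, is the transcription factor that raises many of their enzymes under oxidative or electrophilic stress: KEAP1 normally marks NRF2 for breakdown, and when KEAP1 is modified NRF2 collects in the nucleus and binds antioxidant response elements with a small MAF protein. Slc7a11, Gclc, Gclm, Txnrd1, Srxn1, Nqo1 and Gpx2 are well known NRF2 targets, Slc7a11 is also a target of the amino acid stress factor ATF4, Sod2 is known for its response to inflammatory cytokines, and Sod3 and Gpx3 encode secreted enzymes that act outside the cell.

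The stretches below are shown because they hold the binding core of NRF2 or of ATF4 in the promoters of members that are described below. They come from the RefSeq promoters of GRCm38.p6, which run from 250 bases before to 50 bases after a start site, and which listed 8 of the 10 members. Gclc and Sod3 had no entry. Each line reads 5′ to 3′ on the strand of the gene, and capitals mark the core: TGACNNNGC for the antioxidant response element, TGATGNAA for the amino acid response element, searched on both strands, so that a core on the opposite strand appears as its reverse complement GCNNNGTCA or TTNCATCA.
Srxn1, chr2:152105542-152105570, plus strand: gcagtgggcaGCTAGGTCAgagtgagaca
Gclm, chr3:122245413-122245441, plus strand: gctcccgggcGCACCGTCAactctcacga
Txnrd1, chr10:82859104-82859132, plus strand: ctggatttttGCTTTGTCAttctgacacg
Slc7a11, first match, chr3:50443662-50443689, minus strand: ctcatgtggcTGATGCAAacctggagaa
Slc7a11, second match, chr3:50443643-50443670, minus strand: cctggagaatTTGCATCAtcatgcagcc
The antioxidant response element core was present in 3 of the 8 members with an entry, and in 14% of all 27025 genes with one. The amino acid response element core was present in 1 member, Slc7a11, with 2 matches on opposite strands whose printed stretches overlap, and in 4.51% of all genes. For Txnrd1, the match lay in 1 of its 3 listed promoters. Counted by promoter, the first core was in 3 of 10 entries of members and in 12.4% of all 32851, and the second in 1 of 10 and in 3.97%. A match is a description of the letters and not a measured binding site.

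Between 9240291 and 14665247 reads were counted per library (median 10677163). Alveolar type 2 (AT2) markers were abundant in CTRL lungs, where the 9 markers summed to between 22900 and 27900 counts per 1000000 reads (CPM), and no marker of that list was at 0 in any mouse. A pair of libraries stood apart by tissue that does not belong to the lung: adipose markers summed to 1540 CPM in day 28 mouse 10 and to 706 CPM in day 7 mouse 8, against at most 43 CPM in the others, and day 28 mouse 10 was also the lowest of its group for Slc7a11. The same library held muscle as well, with skeletal muscle markers at 1590 CPM and cardiac muscle markers at 2410 CPM, against at most 16.4 and 840 CPM in the rest of its group. Leaving out either mouse changed no call of a member. Day 14 mouse 8 had the highest sum of neutrophil markers, 598 CPM against at most 194 CPM in the rest of its group.

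After BLEO, the members split into 4 that were higher on most days and 6 that passed the test on 1 day or on none. Slc7a11, Gclc and Srxn1 were higher than in CTRL on all 6 days and Txnrd1 was higher on days 7 to 35, whereas Gclm, Nqo1 and Sod3 passed the test on no day. Sod2 and Gpx2 were higher on day 7, and Gpx3 was higher on day 14. On day 7, 6 of the 10 members were higher, against 24.8% of all genes tested, and 0 were lower, against 21.0% of all genes. The corresponding counts were 5 higher (32.4% of all genes) and 0 lower (29.9%) on day 14, and 4 higher (28.3%) and 0 lower (25.8%) on day 21. They were 4 higher (24.1%) and 0 lower (19.2%) on day 28, 4 higher (16.9%) and 0 lower (13.1%) on day 35, and 3 higher (13.7%) and 0 lower (11.0%) on day 42. These calls are edgeR quasi-likelihood tests with Benjamini-Hochberg adjusted p under 0.05 over all genes tested. At an unadjusted p under 0.05 edgeR gave 1 lower member, Nqo1 on day 21, and 0 on the other days. DESeq2 at an adjusted p under 0.05 gave 0 lower members on every day. The median log2 fold change of the 10 members was 0.34 on day 7 and 0.26 on day 14, and between -0.00 and 0.12 on the later days, while the median of all genes stayed between -0.00 and 0.02. All 6 comparisons share the same CTRL mice. In bulk tissue, fewer cells of a type and less RNA per cell cannot be told apart.

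**Figure D1:**
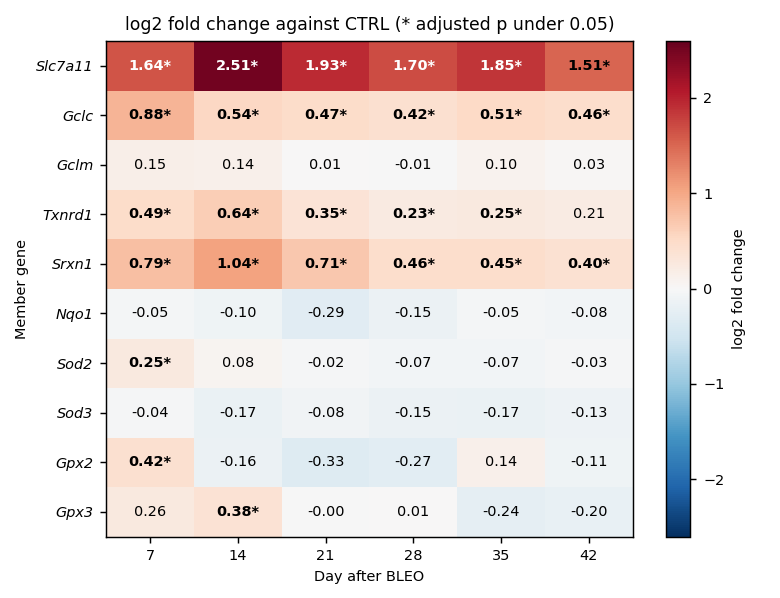
Fitted log2 fold change of each member (rows) against CTRL on each day after BLEO (columns), with stars for an adjusted p under 0.05 (edgeR, 75 mice). Slc7a11 has the highest values, up to 2.51 on day 14, and the rows of Gclm, Nqo1 and Sod3 hold no star.

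**Figure D2:**
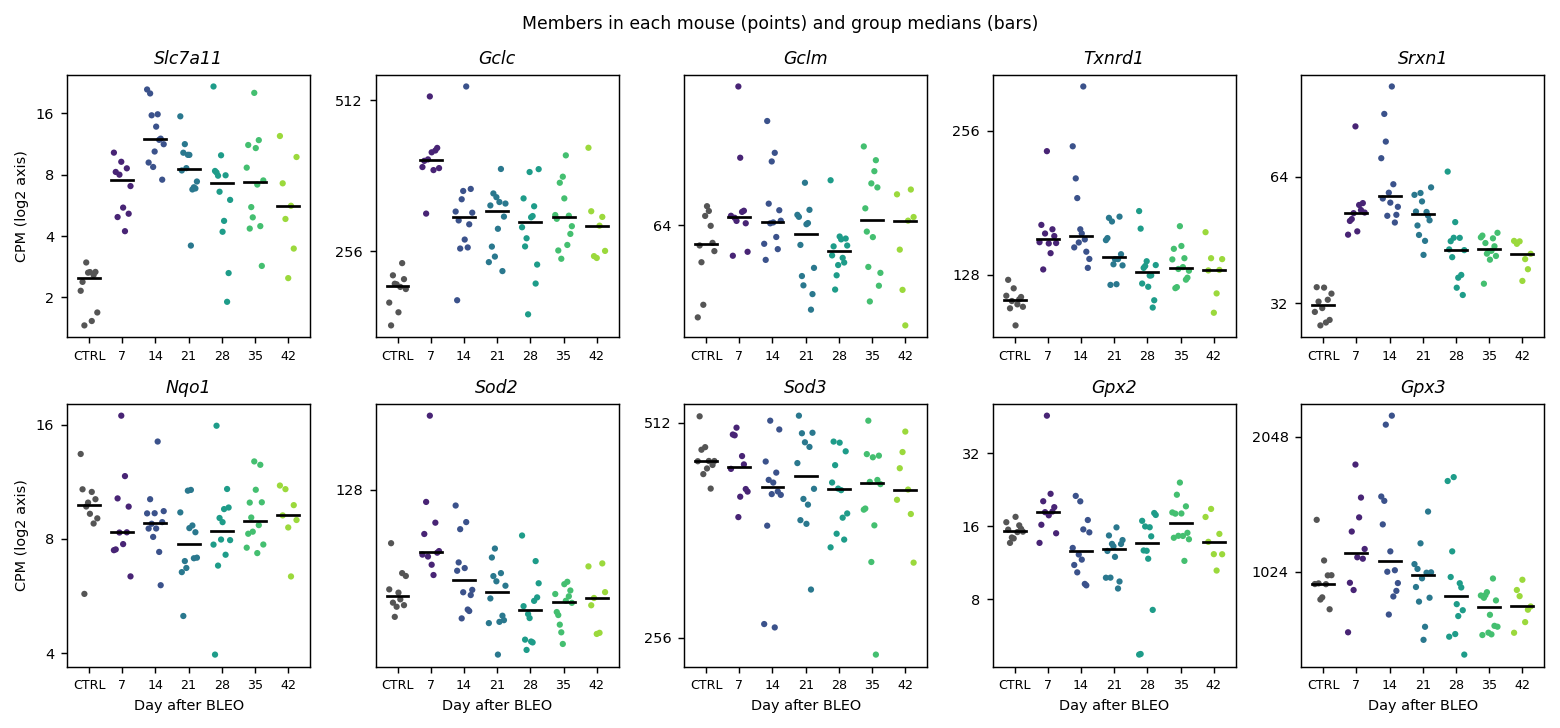
CPM on a log2 axis of each member in each of the 75 mice (points) by group, 1 panel per gene, with the group median as a bar. Slc7a11 and Srxn1 have no overlap between CTRL and day 14, and in the panels of Nqo1 and Sod3 every BLEO group overlaps with CTRL.

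Slc7a11 (chromosome 3, positions 49892526 to 50443614, minus strand, GRCm38) encodes the light chain of the cystine-glutamate exchanger, which brings in the cystine from which glutathione is made. In CTRL mice its level was the lowest of the members, from 1.46 to 2.97 CPM with a median of 2.48 CPM. The lowest, median and highest values were 4.22, 7.51 and 10.2 CPM on day 7, 7.55, 11.9 and 20.9 CPM on day 14, and 3.59, 8.49 and 15.4 CPM on day 21. They were 1.91, 7.24 and 21.6 CPM on day 28, 2.86, 7.32 and 20.1 CPM on day 35, and 2.49, 5.63 and 12.4 CPM on day 42. Every mouse of days 7, 14 and 21 was above the highest CTRL mouse, and from day 28 on the lowest mice fell back into the CTRL range. The increase was 3.11-fold on day 7 (log2 fold change 1.64, SE 0.30, adjusted p = 7.25e-06) and 5.69-fold on day 14 (2.51, SE 0.29, adjusted p = 2.63e-11). It was 3.82-fold on day 21, 3.26-fold on day 28, 3.61-fold on day 35 and 2.85-fold on day 42 (adjusted p = 0.000307). Depth limits this gene most: its counts per library ran from 14 to 215 reads, with a median of 85 over all mice. Over the 75 mice, the genes whose log2 CPM was most like that of Slc7a11 among 16220 others were Litaf (Pearson r = 0.87), Lilr4b (r = 0.86) and Nek6 (r = 0.86), given as a description only.

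Gclc and Gclm encode the catalytic and the modifier subunit of glutamate-cysteine ligase, the rate-limiting enzyme of glutathione synthesis, and of both only the catalytic one passed the test after BLEO at the settings used here. Gclc (chromosome 9, positions 77754535 to 77794485, plus strand) lay between 182 and 243 CPM in CTRL mice with a median of 219 CPM. On day 7 its lowest, median and highest values were 304, 389 and 521 CPM, so that no mouse overlapped with CTRL. Later medians lay between 288 and 308 CPM. The increase was 1.84-fold on day 7 (log2 fold change 0.88, SE 0.11, adjusted p = 7.95e-10), 1.45-fold on day 14 (0.54, SE 0.10, adjusted p = 8.79e-06) and between 1.34-fold and 1.42-fold from day 21 on, with an adjusted p of 0.00291 on day 42. All mice of days 35 and 42 were again above the highest CTRL mouse, as were 11 of 12 on days 14 and 21 and 9 of 12 on day 28.

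Gclm (chromosome 3, positions 122245557 to 122270732, plus strand) did not pass the test on any day. Its median was 61.2 CPM in CTRL mice, within a range of 51.4 to 66.9 CPM. The median was 65.3 CPM on day 7 and 64.5 CPM on day 14, and the groups overlapped. The log2 fold change was 0.15 on day 7 (SE 0.07, adjusted p = 0.0537) and 0.14 on day 14 (SE 0.06, adjusted p = 0.0549), close to the threshold: it passed on day 7 without CTRL mouse 6, 7 or 8 or day 7 mouse 2 or 10, and on day 14 without CTRL mouse 6 or 8 or day 14 mouse 1, 2 or 9. With all mice kept, it passed on day 7 by library size only (adjusted p = 0.0274), with upper quartile factors (0.0481) and with the replicate number as a block (0.0374), and on day 14 with that block (0.0216), which brings the members higher to 7 on day 7 and to 6 on day 14. From day 21 on it lay between -0.01 and 0.10. A few exon bases (296) are shared with Gm17494 on the opposite strand, whose counts came to 0.366% of those of Gclm.

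The ratio of both subunits was therefore set per kilobase of exon within each mouse, which does not depend on library size. In CTRL mice Gclc was 5.94 ± 0.702 times Gclm (SD, n = 10), with a highest value of 6.96. On day 7 the ratio was 9.80 ± 0.914 (SD, n = 10), and 10 of 10 mice were above the highest CTRL mouse. It was 7.76 ± 1.64 on day 14 and between 7.91 and 8.13 on average from day 21 to day 42, when 6 of 7 mice of day 42 were still above the highest CTRL mouse. The ratio uses the same counts as the fold changes above and was given no test of its own.

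**Figure D3:**
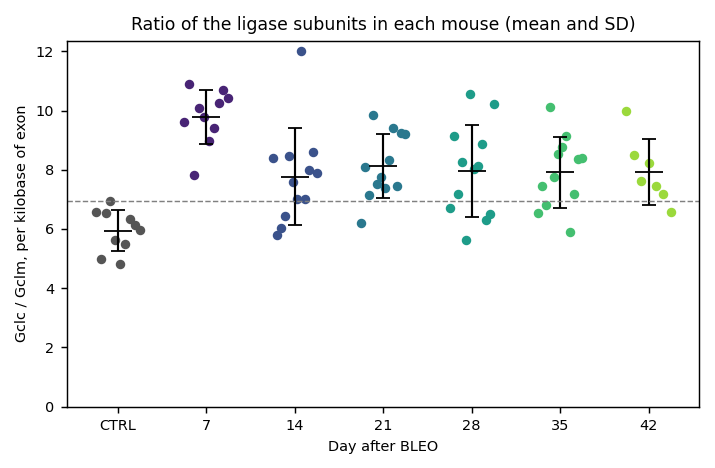
Ratio of Gclc to Gclm per kilobase of exon in each mouse (points) by group, with mean and SD, and the highest CTRL value as a dashed line. All 10 mice of day 7 lie above the line at 6.96, and later days straddle it.

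Srxn1 and Txnrd1 serve the thioredoxin system: sulfiredoxin, encoded by Srxn1, repairs over-oxidised peroxiredoxins, and thioredoxin reductase 1, a selenoprotein encoded by Txnrd1, regenerates thioredoxin in the cytosol with NADPH. Both had their highest group median on day 14, and neither differed between days 7 and 14 at the settings used here. Srxn1 (chromosome 2, positions 152105516 to 152111376, plus strand) ranged from 28.4 to 35.0 CPM in CTRL mice, with a median of 31.8 CPM. Its lowest, median and highest values were 46.6, 52.5 and 84.2 CPM on day 7, 49.8, 57.7 and 105 CPM on day 14, and 41.7, 52.2 and 60.3 CPM on day 21. None of these mice overlapped with CTRL, and neither did any mouse of day 35 or day 42, where the medians were 43.2 and 42.0 CPM. On day 28, 2 of 12 mice lay within the CTRL range, at 33.5 and 34.9 CPM. The increase was 1.73-fold on day 7 (log2 fold change 0.79, SE 0.10, adjusted p = 1.54e-09), 2.06-fold on day 14 (1.04, SE 0.10, adjusted p = 1.65e-14) and 1.32-fold on day 42 (0.40, SE 0.11, adjusted p = 0.00542).

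Txnrd1 (chromosome 10, positions 82833951 to 82897712, plus strand) ranged from 100 to 125 CPM in CTRL mice, with a median of 113 CPM. On day 7 the lowest, median and highest values were 131, 152 and 232 CPM, and on day 14 they were 132, 154 and 317 CPM, so that both groups lay wholly above CTRL. The increase was 1.40-fold on day 7 (log2 fold change 0.49, SE 0.10, adjusted p = 3.77e-05), 1.56-fold on day 14 (0.64, SE 0.09, adjusted p = 2.42e-08) and 1.28-fold on day 21 (adjusted p = 0.00106). The calls of day 28 (0.23, SE 0.09, adjusted p = 0.0423) and day 35 (0.25, SE 0.09, adjusted p = 0.0341) rested on single mice: without CTRL mouse 3, 4, 6, 7 or 10 the first was lost, and without CTRL mouse 3, 6 or 7 the second, with adjusted p of at most 0.0845 and 0.065. Both were also lost without the filter on low counts (adjusted p = 0.0818 and 0.067). On day 42 the log2 fold change was 0.21 (SE 0.11, adjusted p = 0.136), which passed when only CTRL and day 42 were fitted (adjusted p = 0.00737).

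Nqo1 (chromosome 8, positions 107388225 to 107403206, minus strand) encodes the quinone reductase that is often used as a readout of NRF2, and it did not pass the test on any day. Its values ran from 5.74 to 13.4 CPM in CTRL mice with a median of 9.86 CPM, from 6.38 to 16.9 CPM on day 7, and from 6.05 to 14.4 CPM on day 14 with a median of 8.82 CPM. The groups overlapped almost completely. The log2 fold change was -0.05 on day 7 (SE 0.15, adjusted p = 0.806) and -0.10 on day 14 (SE 0.14, adjusted p = 0.54). Its farthest value was -0.29 on day 21 (SE 0.14, adjusted p = 0.0849), which passed without CTRL mouse 3 (-0.36, adjusted p = 0.0313).

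Sod2 (chromosome 17, positions 13006846 to 13040063, plus strand) encodes the manganese superoxide dismutase of mitochondria. It lay between 88.1 and 109 CPM in CTRL mice, with a median of 93.7 CPM, and between 99.6 and 159 CPM on day 7, with a median of 107 CPM. The groups overlapped, and 4 of 10 mice of day 7 were above the highest CTRL mouse. The day 7 increase was 1.19-fold (log2 fold change 0.25, SE 0.06, adjusted p = 0.000628) and held when any 1 mouse was left out, with a log2 fold change of at least 0.19. From day 14 on, the values lay between -0.07 and 0.08 and did not pass the test.

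Sod3 (chromosome 5, positions 52363791 to 52371418, plus strand), the extracellular superoxide dismutase that binds to matrix, is among the most abundant antioxidant mRNAs of the lung and did not pass the test on any day. Its median was 453 CPM in CTRL mice (range 414 to 523 CPM), 416 CPM on day 14 (265 to 516 CPM) and 413 CPM on day 42 (326 to 498 CPM). The BLEO groups reached below CTRL on every day, and 6 of 12 mice of day 14 were below the lowest CTRL mouse, while 1 BLEO mouse of all days, day 21 mouse 2 with 524 CPM, was above the highest CTRL mouse. The log2 fold change was negative on all 6 days, with -0.17 on day 14 (SE 0.09, adjusted p = 0.108) as its farthest value. Without day 14 mouse 5 the day 14 value passed (-0.21, adjusted p = 0.0439), as it did with the replicate block (adjusted p = 0.0405).

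Gpx2 (chromosome 12, positions 76792333 to 76795554, minus strand) encodes an epithelial glutathione peroxidase, and Gpx3 (chromosome 11, positions 54902453 to 54910377, plus strand) the secreted plasma form. Gpx2 lay between 13.7 and 17.5 CPM in CTRL mice with a median of 15.4 CPM, between 13.7 and 45.8 CPM on day 7 with a median of 18.4 CPM, and between 9.12 and 21.4 CPM on day 14 with a median of 12.6 CPM. On day 7, 7 of 10 mice were above the highest CTRL mouse, and on day 14, 7 of 12 were below the lowest. The day 7 increase (1.34-fold, log2 fold change 0.42, SE 0.18, adjusted p = 0.0423) leaned on day 7 mouse 5, without which it was 0.22 (adjusted p = 0.284), and it was also lost without CTRL mouse 2, 3, 4, 5, 7, 9 or 10 or day 7 mouse 3 or 7, and without the filter on low counts (adjusted p = 0.08), which leaves 5 members higher on day 7. Gpx2 lies within the locus of Fntb on the opposite strand. They share 0 exon bases, the counts of Fntb came to 112% of those of Gpx2, and the strand setting of the counting is not given in the sources used here.

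Gpx3 was the most abundant member, with 845 to 1337 CPM in CTRL mice and a median of 963 CPM. On day 14 the lowest, median and highest values were 822, 1084 and 2283 CPM, so the groups overlapped and 4 of 12 mice were above the highest CTRL mouse. The day 14 increase was 1.30-fold (log2 fold change 0.38, SE 0.14, adjusted p = 0.015). It was lost without day 14 mouse 4 (0.28, adjusted p = 0.0689) or mouse 8 (0.28, adjusted p = 0.0622), the mice with 2180 and 2283 CPM. On days 35 and 42 the medians were 852 and 857 CPM and the log2 fold changes -0.24 (adjusted p = 0.191) and -0.20 (adjusted p = 0.379).

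Comparisons between BLEO days asked when each member was highest. From day 7 to day 14, 4 of 10 members differed, against 17.0% of all genes. Slc7a11 rose further (log2 fold change 0.87, SE 0.26, adjusted p = 0.014), with 9 of 12 mice of day 14 above the highest mouse of day 7. Gclc fell (-0.34, SE 0.10, adjusted p = 0.0151), as did Sod2 (-0.17, SE 0.06, adjusted p = 0.0336) and Gpx2 (-0.58, SE 0.17, adjusted p = 0.0115). Thus Slc7a11 was higher on day 14 than on day 7, whereas Gclc was lower. Without day 7 mouse 5 the calls of Gpx2 (-0.37, adjusted p = 0.099) and of Sod2 were lost, and that of Sod2 also without day 14 mouse 5, 9 or 10, without the filter on low counts (adjusted p = 0.0728) and with only both groups fitted (adjusted p = 0.111). Txnrd1 did not pass (adjusted p = 0.26), with a log2 fold change of 0.05 to 0.23 when single mice were left out. Srxn1 (0.25, adjusted p = 0.052) did not pass, and passed when any of 8 single mice, day 7 mouse 5 among them, was left out. It also passed with DESeq2 (adjusted p = 0.0428), with at least 10 counts in every mouse (0.0475) and with the replicate block (0.0385).

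From day 14 to day 21, 1 of 10 members differed, against 1.03% of all genes. Srxn1 fell by 0.33 on the log2 scale (SE 0.09, adjusted p = 0.0468), a call that was lost without day 14 mouse 1, 3, 4 or 8. It was also lost with the replicate block (adjusted p = 0.058), without the filter on low counts (0.0871) and with only both groups fitted (0.326), so that 0 members differed there. Txnrd1 (-0.29, adjusted p = 0.0815) passed without day 14 mouse 5, 10, 11 or 12. From day 14 to day 42, 4 of 10 members differed, against 34% of all genes, and all of them fell. Slc7a11 fell by 1.00 (SE 0.30, adjusted p = 0.00658), Srxn1 by 0.65 (SE 0.11, adjusted p = 3.43e-06), Gpx3 by 0.58 (SE 0.16, adjusted p = 0.00289) and Txnrd1 by 0.43 (SE 0.10, adjusted p = 0.00106) on the log2 scale. Gclc did not pass (-0.08, SE 0.11, adjusted p = 0.611). These 3 comparisons share the mice of day 14.

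Levels were compared between genes as CPM per kilobase of exon. In CTRL lungs the order was Gpx3 with 549 ± 76.3, Sod3 with 122 ± 7.72, Gclc with 57.04 ± 4.71, Txnrd1 with 15.99 ± 0.933, Srxn1 with 11.2 ± 0.863, Gclm with 9.66 ± 0.842, Sod2 with 9.53 ± 0.620, Nqo1 with 6.29 ± 1.24, Gpx2 with 4.78 ± 0.359 and Slc7a11 with 0.163 ± 0.0386 (mean ± SD, n = 10 each). The ranges of Srxn1, Gclm and Sod2 overlapped, as did those of Nqo1 and Gpx2, and the other neighbours did not overlap. Over the length of the longest transcript instead, Txnrd1 moved to 31.3 and Sod2 to 16.3, above Srxn1 with 11.3 and Gclm with 10.9. For Gpx2 the annotated exons cover the whole locus (3222 bases) and the longest transcript is almost as long (3165 bases). Its level per kilobase and its place in the order depend on that annotation. The extracellular enzymes thus held the top of the order, and the transporter Slc7a11 the bottom. Outside the members, Gpx1, the main cytosolic peroxidase, was at 157 ± 12.6, catalase (Cat) at 131 ± 7.49 and the cytosolic dismutase Sod1 at 65.3 ± 7.51. On day 14 Slc7a11 was at 0.939 ± 0.307 (n = 12), still the lowest of the members, and Gpx3 at 715 ± 269, the highest.

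Members were next compared between mice of the same group, after the group mean was taken from log2 CPM, so that the day itself did not set the value. Of the 45 pairs, 22 passed (within-group permutation test, two-sided, adjusted p under 0.05), 16 positive and 6 negative. The strongest positive pair was Txnrd1 and Srxn1 (Pearson r = 0.75, Spearman rho = 0.61, permutation p = 1e-05, adjusted p = 6.43e-05, n = 75), with r = 0.63 without the 2 mice farthest from the median of Txnrd1 and the same sign in 6 of 7 groups. Slc7a11 was tied to Txnrd1 (r = 0.59, rho = 0.66, the same p, r = 0.55 without 2 mice, 7 of 7 groups). Srxn1 also varied with Gpx3 (r = 0.65, rho = 0.55, r = 0.56 without 2 mice, 5 of 7 groups) and with Sod2 (r = 0.60, rho = 0.48, r = 0.49 without 2 mice, 7 of 7 groups), each with the same p. A p of 1e-05 is the smallest that these permutations can give.

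Nqo1 and Gpx2 also varied together (r = 0.56, rho = 0.50, adjusted p = 6.43e-05, r = 0.47 without 2 mice, 6 of 7 groups). Gpx2 passed with no other member, and Nqo1 passed also with Gclm (r = 0.29, rho = 0.26, adjusted p = 0.0228, r = 0.19 without 2 mice, 6 of 7 groups). Gclm in turn passed with Slc7a11 (r = 0.33, rho = 0.25, r = 0.29 without 2 mice) and Txnrd1 (r = 0.34, rho = 0.24, r = 0.23 without 2 mice). It also passed with Srxn1 (r = 0.40, rho = 0.24, r = 0.25 without 2 mice) and Sod2 (r = 0.34, rho = 0.25, r = 0.22 without 2 mice). Gclc and Gclm varied together (r = 0.42, rho = 0.37, adjusted p = 0.00126, r = 0.37 without 2 mice, 7 of 7 groups) although their means moved apart after BLEO. All 6 negative pairs held Sod3, the strongest with Txnrd1 (r = -0.57, rho = -0.44, adjusted p = 6.43e-05, r = -0.49 without 2 mice, 6 of 7 groups). The pairs share the library of each mouse, and 1 mouse could weigh on several: day 7 mouse 5 was above its group mean in 9 of 10 members and the highest of its group in 8, and day 14 mouse 8 was above in 9 and the highest in 5. Without both mice 14 pairs passed, and by Spearman rho 14 did.

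**Figure D4:**
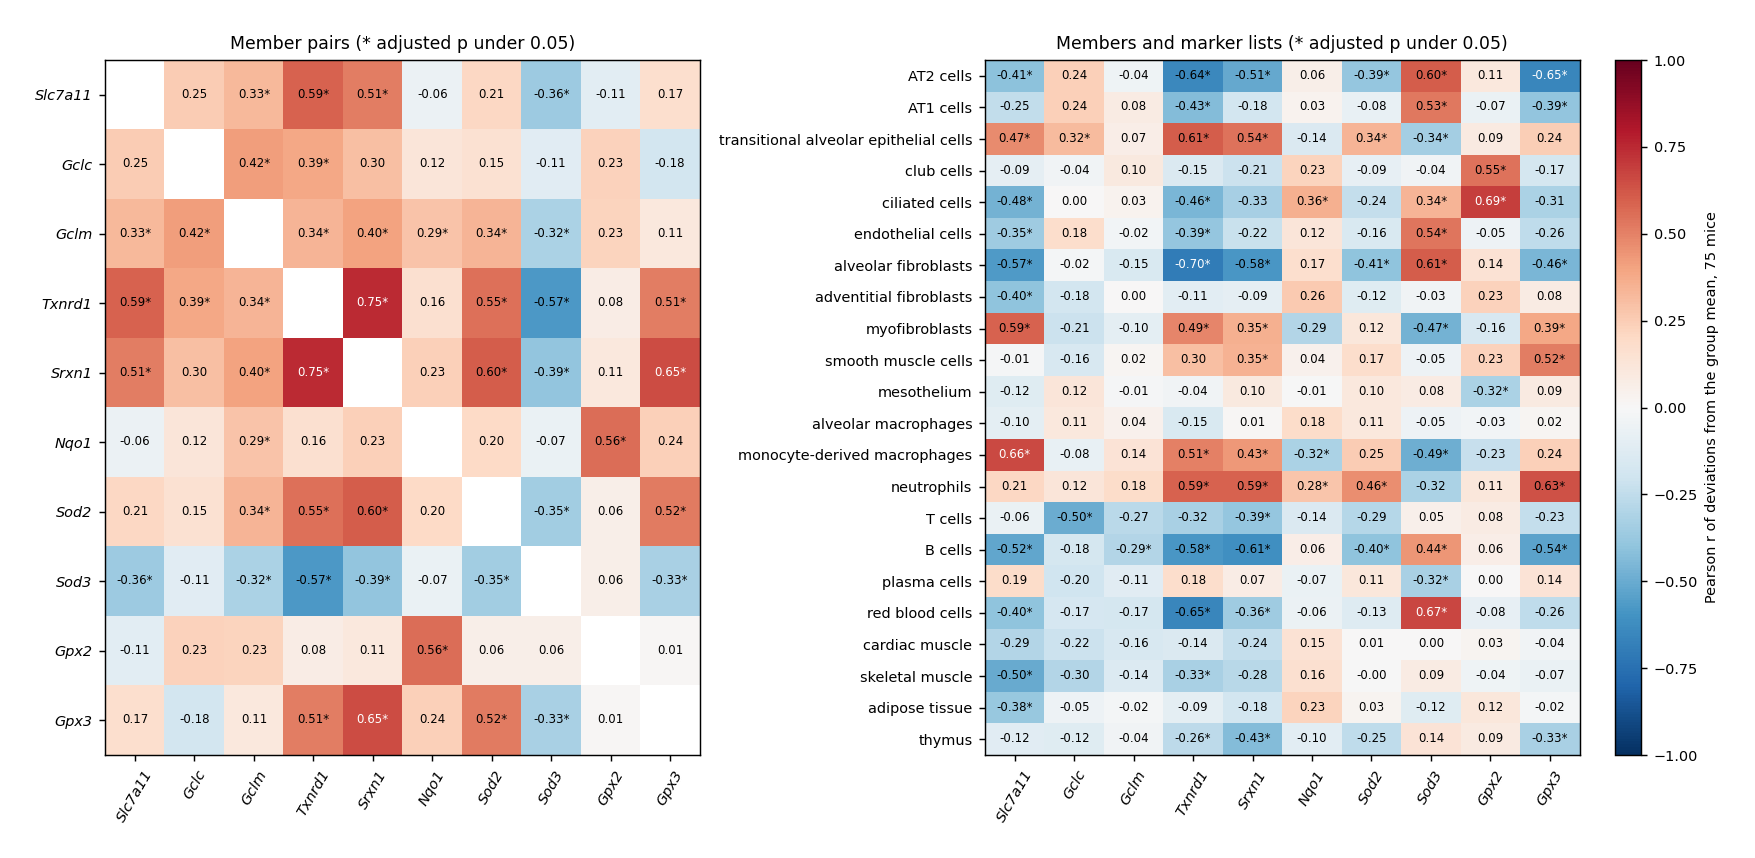
Pearson r of deviations from the group mean in 75 mice, with stars for an adjusted p under 0.05. Pairs of members are on the left. On the right, members are set against the mean log2 CPM of the tested genes of each cell type marker list. Txnrd1 and Srxn1 reach 0.75 on the left, and on the right Gpx2 is highest with ciliated cells at 0.69 and Slc7a11 with monocyte-derived macrophages at 0.66.

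Because each library averages over all cells of the lobe, the members were also set beside 22 lists of marker genes of lung cell types and neighbouring tissues, 151 genes in all. Of the 220 relations, 69 passed, 29 positive and 40 negative. Each list entered these relations as the mean log2 CPM of its tested markers. Slc7a11 rose and fell between mice with the markers of monocyte-derived macrophages (r = 0.66, rho = 0.61, adjusted p = 0.000105, r = 0.61 without 2 mice, 7 of 7 groups) and of myofibroblasts (r = 0.59, rho = 0.56, adjusted p = 0.000105, r = 0.52 without 2 mice, 7 of 7 groups). All 10 macrophage markers were higher than in CTRL from day 7 to day 35 and 9 of 10 on day 42, and none was at 0 in any mouse. Their sum ran from 209 to 294 CPM in CTRL mice, 776 to 1740 on day 7, 1550 to 9290 on day 14, 1350 to 7710 on day 21, 550 to 5210 on day 28, 450 to 3180 on day 35 and 473 to 3640 CPM on day 42. Of the 7 myofibroblast markers, 6 were higher on day 14, and their sum ran from 1340 to 1870 CPM in CTRL mice and from 4020 to 11400 CPM on day 14. The part of these cells in the increase of Slc7a11 was not tested.

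Txnrd1 varied with the markers of transitional alveolar epithelial cells (r = 0.61, rho = 0.65, adjusted p = 0.000105, r = 0.60 without 2 mice, 7 of 7 groups), of whose 7 markers 6 were higher on day 14. These summed to between 470 and 645 CPM in CTRL mice and between 727 and 1470 CPM on day 14. Txnrd1 also varied with the markers of monocyte-derived macrophages (r = 0.51, rho = 0.64, adjusted p = 0.000105, r = 0.67 without 2 mice, 6 of 7 groups), myofibroblasts (r = 0.49, rho = 0.59, adjusted p = 0.000105, r = 0.65 without 2 mice, 6 of 7 groups) and neutrophils (r = 0.59, rho = 0.37, adjusted p = 0.0011, r = 0.35 without 2 mice, 5 of 7 groups). Srxn1 passed with the same 4 lists, with r = 0.54 for transitional cells (0.51 without 2 mice), 0.43 for macrophages (0.55), 0.35 for myofibroblasts (0.46) and 0.59 for neutrophils (0.41). Txnrd1 varied against the markers of alveolar fibroblasts (r = -0.70, rho = -0.71, adjusted p = 0.000105, r = -0.75 without 2 mice, 6 of 7 groups). Among other lists, it also varied against red blood cell (r = -0.65), AT2 (r = -0.64) and B cell markers (r = -0.585). Srxn1 varied against B cell (r = -0.61) and alveolar fibroblast markers (r = -0.58), among others. Each of these had the same adjusted p. Sod3 showed the opposite signs: it was higher in mice with more alveolar fibroblast (r = 0.61, rho = 0.59, r = 0.59 without 2 mice, 7 of 7 groups), AT2 (r = 0.60, rho = 0.48, r = 0.59 without 2 mice, 7 of 7 groups) and red blood cell markers (r = 0.67, rho = 0.58, r = 0.60 without 2 mice, 7 of 7 groups), each with adjusted p = 0.000105. On day 14, 6 of 8 alveolar fibroblast markers, 7 of 9 AT2 markers and 5 of 5 red blood cell markers were lower than in CTRL. The other 2 alveolar fibroblast markers were higher. The fibroblast sum was 4670 to 5570 CPM in CTRL mice and 2070 to 3780 CPM on day 14, and the AT2 sum on day 14 was 6450 to 23900 CPM. The red blood cell sum was 1090 to 2870 CPM in CTRL mice and 225 to 1690 CPM on day 14. The part of these cells in the values of Txnrd1, Srxn1 and Sod3 was not tested.

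Between mice of the same group, Gpx2 varied with ciliated cell markers (r = 0.69, rho = 0.61, adjusted p = 0.000105, r = 0.55 without 2 mice, 6 of 7 groups) and club cell markers (r = 0.55, rho = 0.52, adjusted p = 0.000275, r = 0.42 without 2 mice, 6 of 7 groups). On days 14, 21 and 28, 6 of 6 ciliated markers were lower than in CTRL, with sums of 495 to 664 CPM in CTRL mice, 247 to 498 CPM on day 7 and 143 to 361 CPM on day 14. Club cell sums were 21200 to 28800 CPM in CTRL mice, 7950 to 21900 CPM on day 7 and 3320 to 17000 CPM on day 14, when 3 of 6 markers were lower and 1 was higher. Between groups the direction differed on day 7, when the median of Gpx2 was higher than in CTRL while the median sums were lower, at 362 against 579 CPM for ciliated and 17000 against 26900 CPM for club cell markers. Gpx3 varied with neutrophil markers (r = 0.63, rho = 0.64, adjusted p = 0.000105, r = 0.59 without 2 mice, 7 of 7 groups) and against AT2 markers (r = -0.65, rho = -0.59, adjusted p = 0.000105, r = -0.63 without 2 mice, 7 of 7 groups). Neutrophil sums were 38.1 to 111 CPM in CTRL mice and 42.0 to 598 CPM on day 14, 4 of 7 tested markers were higher on day 14, and the defining markers Ly6g and Camp were at 0 in 33 and 31 of the 75 mice. The part of these cells in the values of Gpx2 and Gpx3 was not tested.

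To set the members in their pathway, 134 other genes were read in 7 lists, of which 130 could be tested. Among all genes tested, the share called higher was 24.8% on day 7 and 32.4% on day 14, and the share called lower 21.0% and 29.9%, against which the counts of the lists are read. Of 16 regulators of NRF2, 4 were higher and 4 lower on day 7, near the share of all genes, and 3 were higher and 3 lower on day 14, below it, with a median log2 fold change of -0.02. Nfe2l2 itself was higher on day 7 (0.33, SE 0.07, adjusted p = 2.18e-05), from a median of 217 CPM in CTRL mice to 276 CPM, but not on day 14 (0.07, SE 0.06, adjusted p = 0.321). Keap1 was at 0.05 on day 7 (adjusted p = 0.31) and -0.01 on day 14 (adjusted p = 0.924), and the related factor Nfe2l1 was at -0.02 on day 14 (adjusted p = 0.756). Bach1, which competes with NRF2 for its elements, was lower on day 7 (-0.19, adjusted p = 0.0231) and at -0.10 on day 14 (adjusted p = 0.218). On day 14 the small MAF protein gene Maff (0.68, adjusted p = 5.23e-05) and Dpp3, whose product binds KEAP1 (0.43, adjusted p = 3.92e-09), were higher, and Nfe2l3 (-0.76, adjusted p = 0.000182) and Bach2 (-0.62, adjusted p = 0.00014) were lower.

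Of 31 other known NRF2 targets tested, 15 were higher and 5 lower on day 7 (all genes 24.8% and 21.0%), and 16 were higher and 13 lower on day 14 (all genes 32.4% and 29.9%, median of the list 0.20). The heme oxygenase gene Hmox1 was higher on day 14 (1.65, SE 0.20, adjusted p = 6.03e-11), from 23.1 to 37.5 CPM in CTRL mice to 64.7 to 158 CPM without overlap, and so was the lipoprotein receptor gene Lrp8 (2.00, SE 0.28, adjusted p = 6.41e-09). The glutathione transferases Gsta3 (-1.47, SE 0.20, adjusted p = 1.58e-09) and Gstm1 (-1.38, SE 0.17, adjusted p = 7.34e-11) were lower. A pair of groups within this list, picked after their values were seen, moved in opposite directions on day 14: all 7 glutathione S-transferases tested were lower (log2 fold changes -2.18 to -0.32), and all 6 enzymes of NADPH supply and the pentose phosphate pathway, G6pdx, Pgd, Taldo1, Tkt, Me1 and Idh1, were higher (0.20 to 0.69). Transferase genes are close copies of each other, and how reads shared between copies were counted is not given in the sources used here. The club and ciliated cell markers given above were also lower on day 14, and their part in the transferase values was not tested.

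Among 32 other enzymes of superoxide, peroxide and thiol chemistry, 19 were higher and 5 lower on day 7, and 19 were higher and 7 lower on day 14 (median 0.34), so that on both days the higher share was above that of all genes and the lower share below it. The metallothioneins Mt2 (4.28, SE 0.52, adjusted p = 8.88e-11) and Mt1 (2.54, SE 0.34, adjusted p = 1.86e-09) and the peroxidase gene Gpx1 (0.49, adjusted p = 7.55e-07) were higher on day 14. The metallothioneins spread widely between mice of day 14, with Mt2 from 36.5 to 931 CPM (median 89.6 CPM) and Mt1 from 47.6 to 623 CPM (median 80.6 CPM). Their CTRL medians were 9.35 and 25.3 CPM. Cat was lower (-1.10, SE 0.14, adjusted p = 1.27e-09), from 302 to 369 CPM in CTRL mice to 81.6 to 251 CPM on day 14 without overlap, as were Txnip, which encodes an inhibitor of thioredoxin (-0.89, adjusted p = 2.22e-09), and Sod1 (-0.66, SE 0.10, adjusted p = 1.85e-08). Among the dismutases, then, the cytosolic one was lower on day 14, while Sod2 and Sod3 did not pass. Of the 6 peroxiredoxins, a group picked after its values were seen, 5 were higher and 1, Prdx6, was lower on day 14.

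Of 13 genes of glutathione supply beyond the members, 6 were higher and 2 lower on day 7, and 5 were higher, near the 32.4% of all genes, and 7 lower, against 29.9%, on day 14 (median -0.36). The heavy chain partner of Slc7a11, Slc3a2, was higher on day 7 (0.31, SE 0.06, adjusted p = 3.33e-05) and at 0.11 on day 14 (SE 0.06, adjusted p = 0.114), when Slc7a11 was at 2.51. Glutathione reductase (Gsr, 0.51, adjusted p = 1.15e-05) and Chac2, which encodes a glutathione-degrading enzyme (0.56, adjusted p = 2.03e-05), were higher on day 14, and Cbs (-1.03, adjusted p = 2.6e-07) and Cth (-0.54, adjusted p = 0.00054) of the route from methionine to cysteine were lower. Of 14 genes of selenoprotein synthesis and of other selenoproteins, 6 were higher and 2 lower on day 14 (all genes 32.4% and 29.9%, median of the list 0.04). Selenom (0.54, adjusted p = 0.000454) and Selenoh (0.35, adjusted p = 0.0014) were higher. Selenop, the selenium carrier (-0.61, adjusted p = 3.44e-08), and the synthesis gene Sepsecs (-0.38, adjusted p = 7.21e-05) were lower.

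Of 12 enzymes that make oxidants, 6 were higher, against 32.4% of all genes, and 4 lower, near the 29.9% of all genes, on day 14 (median 0.59). The higher ones were Nos2, the inducible nitric oxide synthase (1.39, SE 0.24, adjusted p = 1.3e-06), and Cybb (1.37, SE 0.16, adjusted p = 1.27e-11) with the other 4 subunits of the phagocyte NADPH oxidase tested, and Nox4 (-0.46, adjusted p = 7.08e-06) and Xdh (-0.49, adjusted p = 3.8e-05) were among the lower. Cybb went from 62.3 to 111 CPM in CTRL mice to 135 to 254 CPM on day 14 without overlap, when the summed macrophage markers above were also higher. Of 12 targets of ATF4, the other known activator of Slc7a11, 7 were higher and 1 lower on day 14 (all genes 32.4% and 29.9%, median of the list 0.32). The amino acid transporter gene Slc7a5 (1.67, SE 0.22, adjusted p = 1.26e-09) and the serine synthesis gene Psat1 (1.51, SE 0.14, adjusted p = 1.31e-14) were higher, and Vldlr (-0.42, adjusted p = 5.31e-05) was lower.

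**Figure D5:**
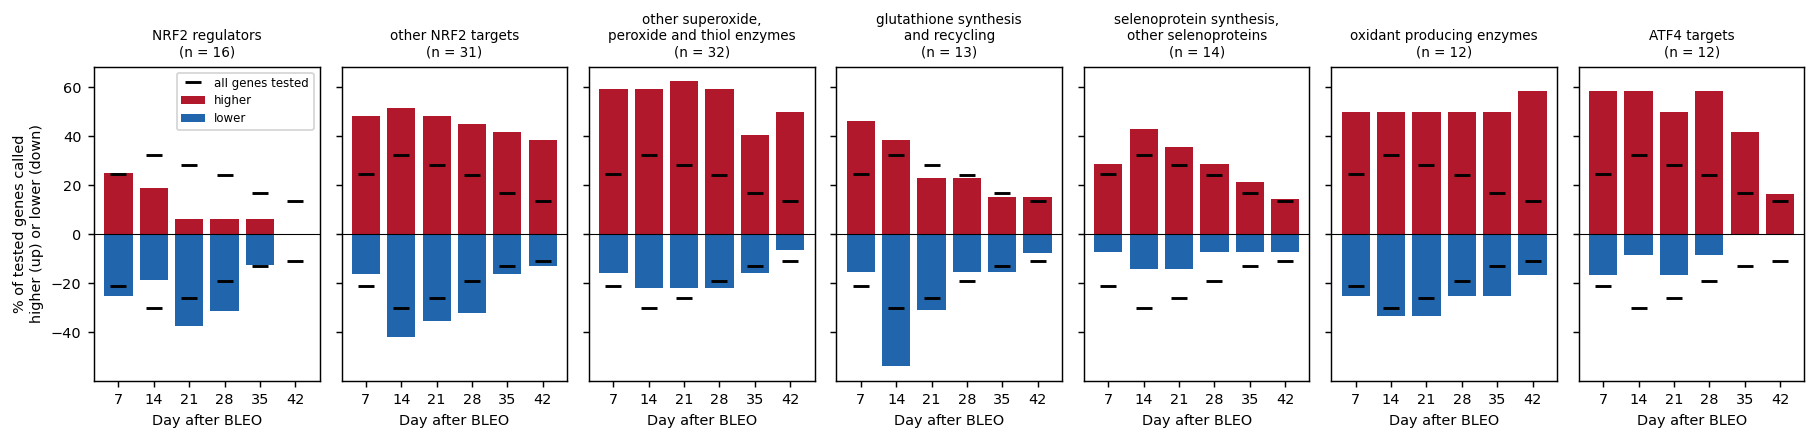
Share of the tested genes of each pathway list that were higher or lower than in CTRL (adjusted p under 0.05, edgeR) on each day, beside the share of all genes tested. On day 14 the other NRF2 targets held 16 higher and 13 lower of 31, and all genes 32.4% higher and 29.9% lower.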

How the data were processed

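RNA sequencing counts of 75 mouse lungs were used. The authors aligned single-end reads with STAR 2.7.0f to GRCm38 (Ensembl release 96) and deposited raw counts per gene. The counting program and its strand setting are not given in the sources used here. All 55536 gene IDs were named from GENCODE M21. Genes passed edgeR's filterByExpr by group, and counts were scaled by TMM. CPM uses the TMM library size. Each day was compared with CTRL, and days 14 and 7, 21 and 14, and 42 and 14 with each other, by the quasi-likelihood F test of edgeR 4.0.16 in R 4.3.3, in 1 fit of 7 group means. P-values were adjusted by Benjamini-Hochberg over 16221 genes, threshold 0.05. DESeq2 1.42.0, which the authors used, was an alternative. Between-mouse relations used log2 CPM (prior count 2) with group means subtracted and 100000 permutations of mice within groups, adjusted within each family. Relations with a marker list used the mean log2 CPM of its tested genes in each mouse. Sums of marker CPM were taken per mouse as a description. Over all pathway lists together, 11 regulators and enzymes were set by name. In each list and direction, the 2 genes with the largest called change on day 14 (mean log2 CPM over 1) were also named, or fewer where fewer passed. The members and lists were chosen with earlier results of these data known. No batch was given in the labels. The lowest chi-square per degree of freedom over 375 pairs of mice of 1 group was 3.88, so no library appeared to be deposited in duplicate within a group. Pairs of mice of different groups were not checked in this way. Labels name separate mice as replicates. The fit was tested on simulated data.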

Additional observations from a re-analysis of the deposited data

Results flagged for a closer look

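A mouse far from the rest of its group was sought in each of the 30 groups of up to 10 mice, and 9 were found, where chance gives about 1 in 20 groups. Of these, 7 were day 7 mouse 5, the highest of its group for Gclc (521 CPM), Gclm (88.9 CPM), Txnrd1 (232 CPM), Srxn1 (84.2 CPM), Nqo1 (16.9 CPM), Sod2 (159 CPM) and Gpx2 (45.8 CPM). The others were day 42 mouse 1 for Gclc (412 CPM) and CTRL mouse 2 for Gpx3 (1337 CPM). Values of members that share a mouse are not independent.

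Besides, 9 differences between BLEO days passed the test of the difference itself. From day 7 to day 14 the log2 fold change was 0.87 for Slc7a11, -0.34 for Gclc, -0.17 for Sod2 and -0.58 for Gpx2. From day 14 to day 21 it was -0.33 for Srxn1. From day 14 to day 42 it was -0.999 for Slc7a11, -0.43 for Txnrd1, -0.65 for Srxn1 and -0.58 for Gpx3.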

How the results depend on the processing

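Of 630 log2 fold changes of members recomputed with all mice kept, 601 kept direction and call, 12 gained a call, 8 lost it and 9 reversed, and none of the reversed was called. The reversed values were those of Gclm on day 21 (-0.0006 with DESeq2, -0.0009 by library size, -0.0107 with upper quartile factors, -0.0097 with at least 10 counts in every mouse), Gclm on day 28 (0.0027 by library size, 0.0119 with the replicate block), Gclm from day 7 to 14 (0.0023 with the block) and Gpx3 on day 21 (0.0025 within the groups compared, 0.0349 with the block). Deviations from the group mean had a median r of 0.006 over 204 pairs of same-numbered mice of different groups. Over 2196 pairs with other numbers it was 0.002. The r was over 0.1 in 63 of the first pairs and in 556 of the second. A median near 0 cannot show that the numbers pair no mice, so a pairing was left undecided. Members higher were 7 on day 7 by library size, with upper quartile factors or with the block, each with Gclm gained, 5 without the filter on low counts (Gpx2 lost), and 6 on day 14 with the block (Gclm). With the replicate block, 1 member was lower on day 14 (Sod3) and 1 on day 21 (Gpx2), and 0 differed from day 14 to 21. Within the groups compared, 1 was lower on day 21 (Gpx2) and 1 on day 35 (Gpx3), and 0 differed from day 14 to 21, as without the filter on low counts. On day 14 the NRF2 regulators lower were 5 with upper quartile factors, and the glutathione genes higher 3 with these factors, without the filter or with the strict one. Genes of the selenoprotein list lower were 4 by library size, with upper quartile factors or with the strict filter. The oxidant enzymes lower were 2 with the strict filter or within the groups compared. By Spearman rho 14 of 45 pairs passed. Over the longest transcript, CTRL levels moved to 0.247 for Slc7a11, 62.8 for Gclc, 10.9 for Gclm, 31.3 for Txnrd1 and 16.3 CPM per kilobase for Sod2, which then exceeded Srxn1. The cause of these moves was not tested.

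Leaving out single mice (33 in all) was chosen after seeing the data, as was leaving out day 7 mouse 5 with day 14 mouse 8, after which 14 pairs passed. The single mice were all those of CTRL, day 7 and day 14, and day 28 mouse 10. No mouse of day 21, 35 or 42 was left out, so how far the results of these days rest on 1 of their own mice was not tested. Day 42 mouse 1, flagged above for Gclc, was thus kept throughout. Members higher were 5 to 7 on day 7, 4 to 6 on day 14, 4 on day 21, 3 to 4 on days 28 and 35 and 3 on day 42. Members lower were 0 to 1 on days 14 and 21 and 0 on the others. Members differing were 3 to 5 from day 7 to 14, 0 to 2 from day 14 to 21 and 4 from day 14 to 42. Of 1290 values, 26 reversed, none of them called. The values that crossed 0 ran from -0.1145 to 0.0309 for Gclc from day 14 to 21 and -0.1263 to 0.0176 to day 42, and for Gclm from -0.0446 to 0.0356 between days 7 and 14, -0.0204 to 0.0194 on day 21 and -0.0352 to 0.0031 on day 28. They ran for Nqo1 from -0.1788 to 0.0119 on day 7, -0.1209 to 0.0093 on day 35, -0.1323 to 0.0768 between days 7 and 14 and -0.0115 to 0.1051 between days 14 and 42, for Sod3 from -0.0063 to 0.0808 between days 14 and 42, and for Gpx3 from -0.0282 to 0.0447 on day 21 and -0.0178 to 0.0551 on day 28. Depth limits Slc7a11 most.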
